A study of Mus musculus with 72 samples.

Results

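The livers of male and female DBA/2J mice on the Control diet were compared gene by gene. The comparison uses the 6 libraries whose titles name Control, DBA/2J and M and the 6 that name Control, DBA/2J and F, 12 of the 72 libraries in the series. Its members are all expressed autosomal genes, 18738 that passed a filter on low counts of 47415 autosomal genes in the count table. DBA/2J is an inbred laboratory strain, and the labels name no engineered allele in either sex. Both sexes had the Control diet from 10 weeks of age for 13 weeks at about 22 °C. Livers were taken at 23 weeks of age, after 16 h without food, so that every value is from fasted liver. The series also holds C57BL/6J mice and mice on Medium Protein and Low Protein diets, with 6 libraries in each of 12 groups of strain, sex and diet. The stated design asks how diets low in protein act in different sexes and strains, and the Control diet gives the difference between the sexes without that change.

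In rodents the liver is one of the organs that differ most between the sexes. The pituitary gland releases growth hormone in separate pulses in males and more evenly in females, and the receptor in hepatocytes passes this pattern to the transcription factor STAT5B through the kinase JAK2. BCL6, a repressor, is higher in male liver and competes with STAT5B at female-biased genes, while CUX2 and TRIM24 are female-biased regulators. The genes known to follow this pattern include cytochromes P450, sulfotransferases, transporters of organic anions and the major urinary proteins, carriers of pheromones that males excrete in large amounts.

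STAT5 binds a palindrome with the letters TTCNNNGAA, which reads the same on both strands. Promoter windows from 250 bases before to 50 bases after the start (RefSeq, build GRCm38.p6) could be matched by symbol for 11623 of the autosomal genes tested. The stretches below are shown because these genes hold the palindrome, in capitals, and are sex-biased genes described further on. Each is given 5′ to 3′ on the strand of its gene, with 20 bases on either side. The first 3 genes were higher in females and the others in males, and Keg1, a glycine N-acyltransferase-like gene, holds the motif more than once.
Sult3a1 (chr10:33857593-33857641, plus strand): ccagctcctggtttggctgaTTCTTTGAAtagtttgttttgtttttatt
A1bg (chr15:60921326-60921374, minus strand): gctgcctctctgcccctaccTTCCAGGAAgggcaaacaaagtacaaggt
Slc22a26 (chr19:7802780-7802828, minus strand): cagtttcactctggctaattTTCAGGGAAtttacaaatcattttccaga
Nox4 (chr7:87246407-87246455, plus strand): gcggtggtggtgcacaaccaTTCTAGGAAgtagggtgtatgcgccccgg
C8a (chr4:104876598-104876646, minus strand): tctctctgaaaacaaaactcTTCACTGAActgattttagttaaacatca
Keg1 (chr19:12695597-12695645, plus strand): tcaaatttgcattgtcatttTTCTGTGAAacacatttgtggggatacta
Keg1 (chr19:12695663-12695711, plus strand): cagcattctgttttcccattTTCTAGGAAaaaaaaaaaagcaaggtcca
The palindrome stood in 7.18% of all windows. Among genes called and at least 2-fold higher in males 20 of 237 held it, 8.44% with a Wilson 95% interval from 5.53 to 12.7%. Of those higher in females 22 of 240 did, 9.17% (interval 6.13 to 13.5%). Both intervals include the share of all windows. The letters CACGTG, a site of clock factors that was searched as a control, stood in 9.57% of all windows, in 7.59% of those of the male-biased set and in 9.17% of those of the female-biased set. These windows are short, and a match is only a match of letters.

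Several of the sex-biased genes belong to families of similar neighbours, and where copies are near-identical this limits how far reads can be assigned to 1 copy. The promoters of Cyp3a41a and Cyp3a41b differed at 8 of 300 bases. Their last 100 bases before the start are shown with the differing base in capitals.
Cyp3a41a (chr5:145720137-145720236, minus strand): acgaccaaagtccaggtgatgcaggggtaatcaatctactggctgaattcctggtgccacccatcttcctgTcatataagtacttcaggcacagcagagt
Cyp3a41b (chr5:145584731-145584830, minus strand): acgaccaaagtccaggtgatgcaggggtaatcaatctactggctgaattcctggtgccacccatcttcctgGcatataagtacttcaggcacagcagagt
Among 13 major urinary protein genes with a window, 9 held the same run of 60 bases, the longest length that was searched, and no other window of the 11623 held it. In Mup7 it lies at chr4:60070510-60070569 on the minus strand, and it is printed as the stretch these windows share. Compared position by position over the whole window, with no shift or gap allowed, the 78 pairs of Mup windows were the same at a median of 30.3% of positions and at most at 57.3%, and those of Sult2a genes at 24 to 29.0%.
Mup7: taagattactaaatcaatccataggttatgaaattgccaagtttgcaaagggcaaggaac
The other carriers were Mup2, Mup9, Mup11, Mup14, Mup15, Mup17, Mup18 and Mup19.

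The 12 libraries held 26.9 to 36.3 M counts each. Xist, the RNA of the inactive X chromosome, stood at 1583 to 1824 CPM (counts scaled to the size of the library after TMM) in females and at 0.555 to 2.29 CPM in males, and Ddx3y, a Y chromosome gene, at 86.5 to 100.5 CPM in males and 0 in all females, so 0 libraries went against their label for sex. Male replicate 4 stood apart, with 10.5% of its counts from genes that read like ribosomal RNA, against 0.433 to 1.01% in the other 11 libraries. The counts of males were more concentrated: the 10 most abundant genes took 34.8 to 38.5% of counts in males and 32.1 to 34.1% in females, and the TMM factors of the sexes did not overlap. Fewer genes had a count in males (22578 to 23363) than in females (23683 to 25044). Mitochondrial genes took 20.1 to 21.4% of counts in 5 males, 17.8% in male replicate 4 and 16.9 to 18.95% in females, and the part of these differences in the results was not tested. Scaling by library totals alone moved the median log2 fold change of all genes by -0.28. The codes in the labels that read like plate positions run from E8 to B9 in males and from G10 to D11 in females, so an effect that follows them and the effect of sex cannot be told apart. Nothing in the labels says whether the animals of a group shared a cage or litter, and each animal was counted as independent. The p-values rest on the spread between animals within a group, estimated over all 12 groups and 72 libraries.

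Many autosomal genes differed between the sexes, most of them by little. The edgeR quasi-likelihood test called 3402 genes at a Benjamini-Hochberg adjusted p below 0.05, which is 18.2% of the 18738. Of these, 1960 (10.5%) were higher in males and 1442 (7.7%) in females. The median size of a called difference was 0.50 on the log2 scale, and 830 genes (4.43%) differed at least 2-fold, 387 (2.07%) higher in males and 443 (2.36%) in females. At the far end, 60 genes were at least 16-fold higher in males and 63 in females. The 6 males and the 6 females did not overlap in 1679 genes (8.96%), of which 1559 were called. The split between the directions depends on the scaling. With library totals 7024 genes were called and 7.62% of them were higher in males, against 57.6% with TMM. Of all genes 2.86% were then called higher in males and 34.6% in females, and these shares, like 10.5% and 7.7% with TMM, are those against which the counts of gene lists below are to be read.

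**Figure D1:**
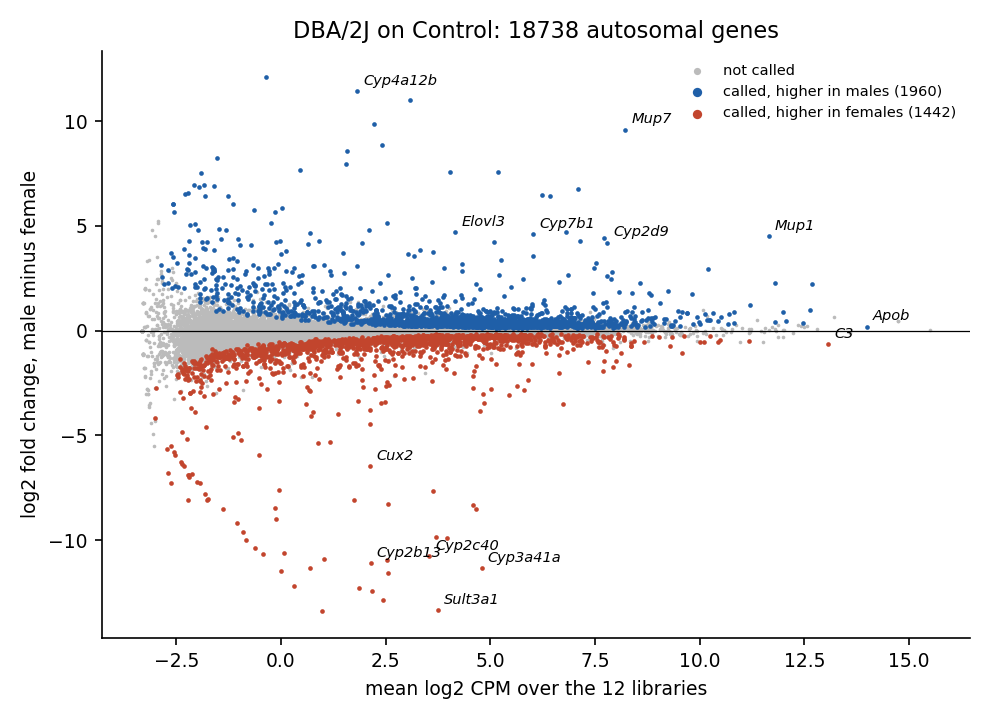
Each point is 1 autosomal gene, with its mean log2 CPM over the 12 libraries on the x axis and the log2 fold change (male minus female) on the y axis. Blue points are the 1960 genes called higher in males and red points the 1442 called higher in females; the largest folds lie far from the bulk in both directions.

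Major urinary proteins (MUPs) were among the most male-biased genes. Of 21 tested Mup genes 20 were called higher in males and 0 in females, with a median log2 fold change of 2.99, against -0.01 over all autosomal genes. Together they took 3.71 to 7.60% of the scaled counts of a male library and 0.358 to 1.14% of a female one. In this and the next paragraphs, 3 CPM values are the lowest, the median and the highest of the 6 animals of a sex, a fold change is log2 of male over female with its standard error, and adjusted p-values are from edgeR over all genes tested. Mup7 (ENSMUSG00000073842) stood at 6266, 9966 and 12691 CPM in males and at 4.45, 7.79 and 37.1 CPM in females. Every male was above every female, at a fold change of 9.60 ± 0.84 (adjusted p = 1.34e-14). Mup20, which encodes the pheromone darcin, stood at 465, 888 and 1115 CPM in males and 6.81, 7.63 and 21.8 CPM in females (6.42 ± 0.50, adjusted p = 8.26e-17). Mup21 stood at 173, 227 and 291 and 0.686, 1.06 and 2.07 CPM in the same order (7.56 ± 0.42, 1.31e-23).

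Mup1 and Mup22 had some of the highest counts among genes called higher in males. Mup1 stood at 10624, 17176 and 19840.5 CPM in males and at 390.5, 598 and 1493 CPM in females (4.52 ± 0.50, adjusted p = 9.3e-11), and Mup22 at 9893, 14958 and 19647 and 1855, 3263 and 5294 CPM (2.25 ± 0.29, 1.07e-08). Mup3 (2.93, 3.56e-17), Mup8 (5.14, 1.41e-15) and Mup9 (2.26, 0.000133) were also higher in males. Mup18 stood at 7.81, 39.3 and 100.02 CPM in males and 0, 0.173 and 0.319 CPM in females (7.97 ± 0.88, 7.18e-11). In Mup15 the males spread widely, at 35.3, 97.3 and 623 CPM, with the females at 0, 0 and 1.77 CPM (9.85 ± 1.14, 4.39e-10; adjusted p = 0.0639 with limma-voom). Mup12 had 1998 CPM in male replicate 4 and at most 8.87 CPM in the other males, and its fold change of 8.60 ± 1.07 (adjusted p = 2.87e-09) fell to 2.84 (4.94e-05) without that library. Mup11 was the 1 tested member that did not pass (0.93, 0.31). Reads of these copies can be divided between them, so that values of single Mup genes are less certain than their sum.

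**Figure D2:**
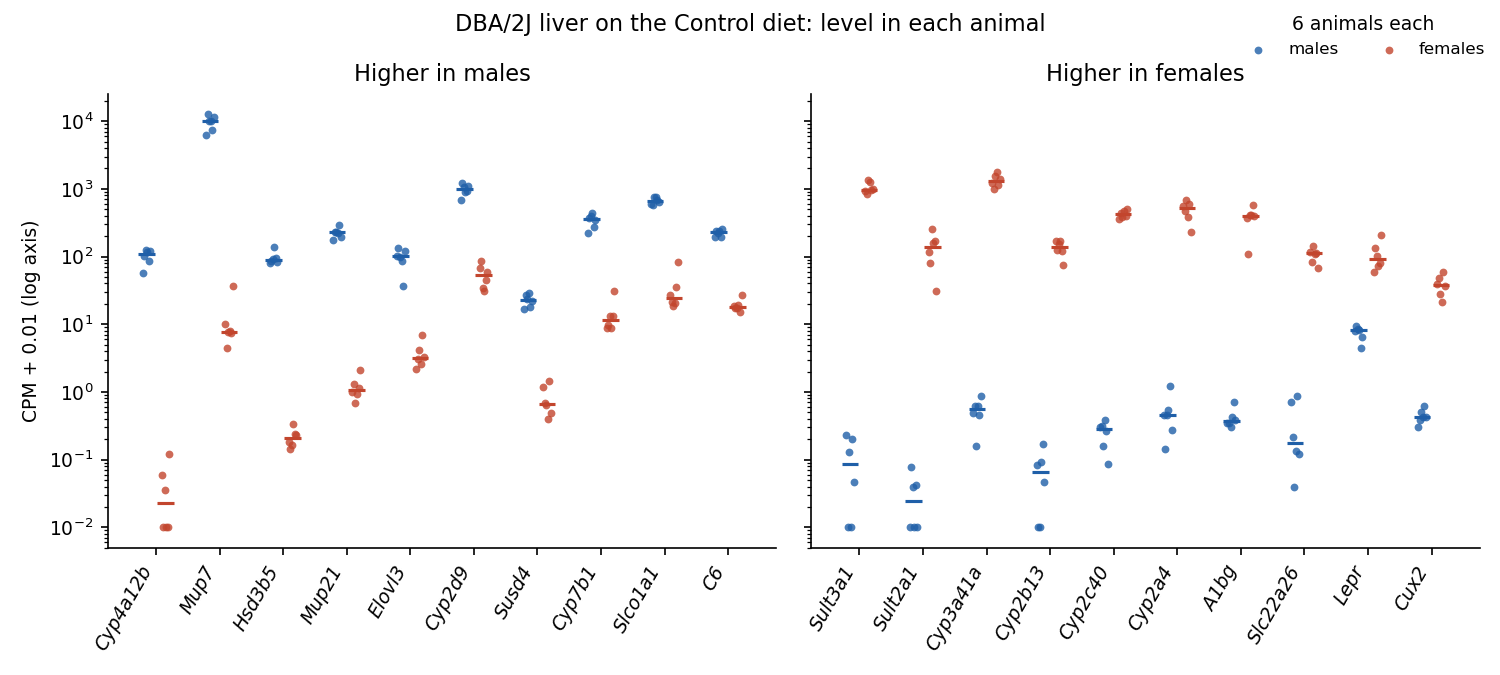
Points are single animals (blue males, red females, 6 each), bars are medians, and the y axis is CPM plus 0.01 on a log scale; 10 genes higher in males are on the left and 10 higher in females on the right. In all 20 genes the sexes do not overlap, and single animals such as the highest female in Mup7 (37.1 CPM) or the highest male in A1bg (0.697 CPM) lie apart from their own sex.

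Enzymes of steroid and fatty acid metabolism were among the genes that rose most in males. Cyp4a12a and Cyp4a12b, neighbouring genes of fatty acid omega-hydroxylases, had the highest fold changes. Cyp4a12b (ENSMUSG00000078597) stood at 57.7, 109 and 125 CPM in males and 0, 0.0127 and 0.112 CPM in females, where it had 7 counts over the 6 libraries (11.45 ± 0.68, adjusted p = 2.78e-22). Cyp4a12a stood at 332, 364 and 383 and 0, 0.0816 and 0.728 CPM (11.01 ± 0.77, 7.94e-19). In Hsd3b5 (ENSMUSG00000038092), which reduces steroids such as dihydrotestosterone, males had 79.5, 88.8 and 139.8 CPM and females 0.133, 0.198 and 0.328 CPM (8.86 ± 0.60, 2.53e-19). Its relatives Hsd3b2 (3.35 ± 0.29, 5.97e-15) and Hsd3b3 (1.47 ± 0.21, 8.75e-08) were higher in males by less, and Srd5a1, a steroid 5-alpha-reductase, by 2.24 ± 0.21 (1.03e-13). None of these 6 genes had an overlap between the sexes.

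Cyp7b1 (ENSMUSG00000039519), which hydroxylates oxysterols and steroids, stood at 221, 359.9 and 437 CPM in males and at 8.69, 11.4 and 31.1 CPM in females (4.60 ± 0.38, adjusted p = 7.56e-16). Cyp2d9, a steroid 16-alpha-hydroxylase, stood at 693, 1001 and 1231 and 30.6, 52.7 and 84.9 CPM (4.20 ± 0.27, 1.95e-20). Elovl3, an elongase of very long fatty acids, stood at 36.6, 101 and 135 and 2.19, 3.15 and 6.91 CPM (4.72 ± 0.44, 1.35e-13). In all 3 genes the sexes did not overlap. Cyp2u1 (3.58, 1.53e-19) and Cyp2f2, an enzyme of periportal hepatocytes (1.84, 3.38e-13), were also higher in males. So were the phase 2 genes Gstp1 (3.21, 1.07e-18), Ugt2b1 (1.78, 3.16e-12) and Ugt2b38 (5.16, 4.35e-08), and the carboxylesterase Ces3a (1.76, 2.98e-12). Selenbp2, a selenium-binding protein, stood at 761, 1007 and 1183 CPM in males and 31.0, 47.6 and 70.2 CPM in females (4.42 ± 0.52, 3.92e-10).

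Membrane transporters and receptors followed. Slco1a1, an uptake transporter of organic anions, stood at 573, 661 and 766 CPM in males and 18.6, 24.2 and 84.3 CPM in females (4.27 ± 0.42, adjusted p = 1.4e-12). Abcg2, an efflux pump of xenobiotics and urate, stood at 75.2, 93.1 and 103 and 13.4, 14.6 and 16.3 CPM (2.65 ± 0.13, 1.76e-26), with no overlap of the sexes. Ttc39c (2.33 ± 0.15, 7.92e-20), Egfr, the receptor of epidermal growth factor (1.72 ± 0.29, 5.1e-06), and Nox4, an NADPH oxidase (3.76 ± 0.26, 2.8e-19), were higher in males. Capn8, a calpain protease (5.88 ± 0.62, 1.13e-11), and the pseudogene Adh6-ps1 (7.66 ± 0.59, 4.11e-17) rested on low female levels, at most 0.179 and 0.140 CPM. Keg1, with the palindromes shown above, stood at 71.3, 87.2 and 129 and 15.7, 21.2 and 28.4 CPM (2.10 ± 0.29, 4.03e-08). Mug1, a murinoglobulin, and Apob, the protein of very low density lipoprotein, had some of the highest counts among genes called higher in males, with Mug1 at 0.97 ± 0.21 (0.000398) and Apob at 0.19 ± 0.06 (0.0263). The direction of Apob flipped with library totals (-0.09, adjusted p = 0.335). Lars2 passed (6.49 ± 1.95, 0.0127), but male replicate 4 had 22361 CPM against at most 104 CPM in the other males, and without that library it stood at 0.53 (0.862). The call did not hold without 1 library for Apob (male 2 and 3 or female 1, 2 and 5; adjusted p up to 0.105).

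Complement genes were called higher in males more often than in females with TMM scaling. With library totals they were called as often in each sex, where 2.86% of all genes were called higher in males and 34.6% in females. Of 35 tested complement genes 15 were called higher in males and 2 in females, with a median of 0.24. With library totals the counts were 7 and 7 and the median -0.04, or 0.24 relative to the shift of the median of all genes (-0.28). Taking off that shift nearly returns the TMM median by construction, so it is no separate check. Genes of the membrane attack complex, which perforates membranes, were among those higher in males. C6 stood at 192, 232 and 253 CPM in males and 15.1, 18.0 and 26.7 CPM in females (3.55 ± 0.25, adjusted p = 1.06e-18), C8a at 791, 834 and 974 and 162, 206 and 406 CPM (1.80 ± 0.33, 2.76e-05), and C8b (1.78 ± 0.25, 4.9e-08) and C9 (1.39 ± 0.27, 7.55e-05) were also higher, with no overlap of the sexes in these 4 genes. C4a rose by 2.48 ± 0.30 (7.63e-10), and Susd4, a complement inhibitor, stood at 16.6, 22.6 and 29.1 and 0.388, 0.650 and 1.44 CPM (4.83 ± 0.28, 6.26e-23). By contrast C3, the central protein of the cascade, was lower in males, at 6301, 6733 and 7782 against 9582, 10773 and 11449 CPM (-0.65 ± 0.11, 9.17e-06). Among serpins, inhibitors of proteases, 10 of 30 were higher in males and 2 in females, with a median of 0.19. Library totals gave 7 and 7 and a median of -0.09, or 0.19 relative to that shift. Examples are Serpina12, which encodes vaspin (2.86 ± 0.39, 4.18e-08), and Serpina1c, an alpha-1-antitrypsin copy (0.87 ± 0.12, 4.2e-08). Serpina1a (0.45, 8.64e-05) and Serpina1b (0.36, 0.000654) were higher by less and did not pass with library totals (0.136 and 0.443).

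Most sulfotransferases tested were higher in females. Of 18 tested genes of sulfation 13 were higher in females and 3 in males, with a median log2 fold change of -3.89. Sult3a1 (ENSMUSG00000069668), a sulfotransferase of amines, stood at 851, 971 and 1346 CPM in females and at 0, 0.0775 and 0.222 CPM in males, in whom 17 counts were found over 6 libraries (-13.34 ± 0.63, adjusted p = 3.66e-27). Sult3a2 stood at 185, 209 and 361 CPM in females with 5 counts in all males (-12.86 ± 0.80, 1.35e-17). Sult2a1 (ENSMUSG00000078798), which sulfates bile acids and dehydroepiandrosterone, stood at 31.2, 137 and 258 CPM in females with 4 counts in males (-12.30 ± 0.98, 8.5e-16). In all 3 genes the lowest female was far above the highest male.

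Sult2a5 had 0 counts in all 6 males and 4.56, 17.6 and 34.1 CPM in females, at least 1055-fold higher in females if the males are set at 3 counts over the group. In Sult2a2 the males had 3 counts in all and the females 13.8, 41.7 and 71.0 CPM, a ratio of 2318 with a 95% counting interval from 793 to 11243. Sult2a3 had 1 count in males, and its ratio of 2678 had an interval from 480.3 to 105799 (adjusted p = 6e-05, 0.254 with limma-voom). The pseudogene Zbed4-ps2 also had 0 counts in males and 18.6, 43.0 and 59.7 CPM in females, at least 2388-fold higher in females. These bounds and intervals cover counting error only. Sult1e1, which inactivates oestrogens, was higher in females by less (-3.34 ± 0.73, 0.000417). Sult2a8 went the other way, at 781, 842 and 951 CPM in males and 299.7, 329.9 and 414 CPM in females (1.33 ± 0.17, 1.04e-08).

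Cytochromes P450 of families 2 and 3 were divided between the sexes. Of 46 tested genes 17 were higher in females and 11 in males, where 7.7% and 10.5% of all genes were. With library totals the counts were 22 and 8, where 34.6% and 2.86% of all genes were called. The median of the list then went from -0.25 to -0.54. Cyp3a41a (ENSMUSG00000075551), a monooxygenase of steroids and drugs, stood at 992, 1314 and 1801 CPM in females and 0.147, 0.545 and 0.861 CPM in males (-11.35 ± 0.56, adjusted p = 1.87e-26). Cyp3a41b (-11.59, 1.65e-12), Cyp3a16 (-12.41, 1.06e-19) and Cyp3a44 (-8.50, 5.59e-19) were also higher in females. Cyp3a11, a relative of the same family, stood at 483, 574 and 722 CPM in males and 472, 639.8 and 752 CPM in females, and the sexes overlapped (-0.04 ± 0.22, 0.934). Without female replicate 5 or male replicate 4 its sign turned.

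Cyp2b13 stood at 74.7, 138 and 167 CPM in females and 0, 0.0557 and 0.158 CPM in males (-11.09 ± 0.56, adjusted p = 9.35e-26), and Cyp2b9 at 370.2, 567 and 688 and 0.262, 0.680 and 6.22 CPM (-8.34 ± 0.78, 1.31e-13). Cyp2b10, the member best known for its induction by drugs through the receptor CAR, was low in both sexes, at 0.657, 2.22 and 3.05 CPM in females and 0.0740, 0.129 and 0.348 CPM in males (-3.67 ± 0.68, 3.52e-05). Cyp2a4, a steroid 15-alpha-hydroxylase, stood at 234, 515 and 689 and 0.135, 0.443 and 1.204 CPM (-9.90 ± 0.54, 4.78e-24). Its close relative Cyp2a5 overlapped between the sexes, at 143, 447 and 772 CPM in females and 82.6, 147 and 641 CPM in males, and did not pass (-0.84 ± 0.49, 0.25). Cyp2c40 (-10.78 ± 0.56, 3.39e-25), Cyp2c69 (-10.93 ± 0.79, 2.53e-18) and Cyp2c39 (-3.48 ± 0.33, 3.87e-13) were higher in females. Cyp17a1, which makes androgen precursors, stood at 82.8, 96.9 and 193 CPM in females and 2.95, 7.64 and 29.6 CPM in males (-3.43 ± 0.46, 2.16e-08).

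Further genes higher in females cover secreted proteins, transport and lipid handling. A1bg, a plasma glycoprotein, stood at 108, 401 and 569 CPM in females and 0.294, 0.356 and 0.697 CPM in males (-9.84 ± 0.77, adjusted p = 9.82e-17). The organic anion transporter Slc22a26 stood at 67.7, 112 and 142 and 0.0294, 0.163 and 0.855 CPM (-8.26 ± 0.42, 9.94e-26). Slc22a27 (-5.29, 1.72e-13) and Slco1a4 (-2.83, 2.93e-12) were higher in females, whereas Slc22a28 was higher in males (3.10, 1.33e-10). Abcd2, a peroxisomal importer of fatty acids (-3.02, 1.47e-11), Acot3, a peroxisomal thioesterase (-2.65, 2.66e-05), and Vldlr, the receptor of very low density lipoprotein (-3.80, 9.88e-11), were higher in females. Lepr, the leptin receptor, stood at 59.3, 90.5 and 205 CPM in females and 4.37, 8.14 and 9.53 CPM in males (-3.84 ± 0.47, 1.13e-09). Of the genes with the highest counts among those higher in females, Fn1, fibronectin (-0.50 ± 0.11, 0.000425), Plg, plasminogen (-0.46 ± 0.08, 2.26e-05), and Ces1c (-0.52 ± 0.11, 0.00022) differed by less than 2-fold.

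Most members of the lists of known sex-biased liver genes differed in the direction of their list. Of 38 tested male-biased genes 36 were higher in males and 0 in females (median 3.57). Of 50 female-biased genes 41 were higher in females and 2 in males (median -3.18, also with genes without counts in a sex at their bound). Both lists were drawn up with earlier results of these data known. The exceptions were Aldh1a1, a retinaldehyde dehydrogenase, at 830.5, 945 and 1418 CPM in males and 427, 511 and 598 CPM in females (0.96 ± 0.17, adjusted p = 1.13e-05), and Gna14, a G protein subunit (0.84 ± 0.22, 0.00447). Serpina1e, male-biased by its list, overlapped between the sexes at 404, 421 and 459 CPM in males and 376, 458 and 495 CPM in females (-0.08 ± 0.51, 0.937).

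Among 33 tested genes of growth hormone signalling and sex-biased regulators, 10 were higher in females and 2 in males, where 7.7% and 10.5% of all genes were. With library totals the counts were 16 and 2, where 34.6% and 2.86% of all genes were called. The median of the list then went from -0.04 to -0.33. Cux2 (ENSMUSG00000042589) stood at 21.6, 37.9 and 59.4 CPM in females and 0.296, 0.411 and 0.602 CPM in males (-6.47 ± 0.72, adjusted p = 7.21e-11). Tox, a nuclear factor, stood at 12.6, 14.4 and 17.6 and 1.74, 2.50 and 3.04 CPM (-2.59 ± 0.20, 2.57e-17), and Trim24 at 85.4, 91.0 and 103 and 20.4, 25.6 and 55.6 CPM (-1.59 ± 0.17, 3.37e-11). For these 3 regulators every female was above every male.

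Bcl6 was higher in males, at 9.50, 49.3 and 60.8 CPM against 6.48, 11.0 and 30.6 CPM, with overlap (1.57 ± 0.52, 0.0258). It did not pass without male replicate 4 (1.46, adjusted p = 0.0535), and leaving out other single libraries also ended its call. Targets of STAT5 that report recent hormone signalling varied from animal to animal. Socs2, an inhibitor of the growth hormone receptor, stood at 33.3, 47.5 and 88.1 CPM in females and 4.35, 10.7 and 25.1 CPM in males (-1.93 ± 0.43, 0.000508). Cish, another such inhibitor, had 0.970, 2.21 and 20.2 CPM in males and 3.67, 10.0 and 16.4 CPM in females and did not pass (-1.02 ± 0.61, 0.256). Of the 6 males 1 was above every female in Cish, and the other 5 were at or below 3.93 CPM. Without 1 library the threshold was missed by Bcl6 (male 3, 4 and 5 or female 2, 3 and 4; adjusted p up to 0.0683).

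Prlr, the prolactin receptor (-1.93 ± 0.19, 8.83e-13), Esr1, the oestrogen receptor alpha (-0.60 ± 0.15, 0.00302), Nr1i3, the receptor CAR (-0.50 ± 0.17, 0.0307), and Stat5b itself (-0.30 ± 0.09, 0.0164) were higher in females, and Ppara was higher in males (0.64 ± 0.13, 0.000211). The call of Stat5b was lost in a fit of the 12 libraries alone. Ghr, the growth hormone receptor (301, 350.2 and 525 CPM in males and 251, 317 and 392 CPM in females, 0.23 ± 0.14, 0.283), and Igf1, its main hormonal output (493, 569 and 654 and 546, 567 and 615 CPM, -0.02 ± 0.11, 0.907), overlapped between the sexes and did not pass, and with library totals Ghr stood at -0.06. Leaving out 1 library ended the call of Nr1i3 (male 1, 2 and 6 or female 1 and 3; adjusted p up to 0.0942) and Stat5b (male 6 or female 2; adjusted p up to 0.1).

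Hamp and Hamp2, the genes of hepcidins that limit iron release, were higher in females. Hamp2 stood at 295, 428 and 624 CPM in females and 105, 136 and 167 CPM in males (-1.72 ± 0.39, adjusted p = 0.000846) and Hamp at 117, 161 and 257 and 61.9, 96.0 and 151 CPM (-0.88 ± 0.28, 0.0182; 0.0561 without male replicate 4). Of 18 iron genes 5 were higher in females and 1 in males (8 and 0 with library totals). Of 29 acute phase genes 4 were higher in females and 0 in males (median -0.44): Fgl1 (-1.63 ± 0.34, 0.000283), Lbp, which binds bacterial lipopolysaccharide (-0.78 ± 0.15, 3.57e-05), Itih3 (-0.56 ± 0.20, 0.044) and Hamp. Itih3 missed the threshold without male replicate 4 (0.106). In coagulation 3 of 25 genes were higher in females and 0 in males, among them Plg (above) and Serpinc1, antithrombin (-0.25 ± 0.06, 0.00121). Over all genes 7.7% were called higher in females. With library totals 14 acute phase and 13 coagulation genes were called higher in females and 0 and 0 in males, where 34.6% of all genes were called higher in females. The call did not hold without 1 library for Hamp (male 4 or female 2; adjusted p up to 0.0636) and Itih3 (male 3, 4, 5 and 6 or female 2, 3, 4 and 6; adjusted p up to 0.106).

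Many genes of protein folding were called higher in males, and many of these calls were lost without male replicates 3 and 6. Of 22 endoplasmic reticulum (ER) stress genes 17 were higher in males and 0 in females (median 0.62; with library totals 10 and 0, median 0.34). Hspa5 (ENSMUSG00000026864), the main chaperone of the ER, stood at 473, 531 and 961 CPM in males and 246, 315 and 438 CPM in females (0.97 ± 0.22, adjusted p = 0.000635). Creld2 stood at 14.3, 17.3 and 40.8 and 6.83, 8.74 and 10.4 CPM (1.44 ± 0.32, 0.000564). Sdf2l1 (1.54, 0.000711), Herpud1 (1.31, 0.000125), Manf (1.29, 0.000188), Hyou1 (1.01, 0.000106), Calr (0.88, 0.000123) and Xbp1, a transcription factor of the response (0.61, 0.000272), went the same way. In all of these the sexes did not overlap except in Herpud1.

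Of 18 heat shock genes 9 were higher in males and 0 in females and 9 did not pass (median 0.38; with library totals 3 and 0, median 0.11). The stress-induced Hspa1b stood at 0.792, 2.46 and 28.5 CPM in males and 0.172, 0.501 and 1.09 CPM in females (4.14 ± 0.76, adjusted p = 2.96e-05, 0.0534 with limma-voom). Hspa1a stood at 4.25 ± 0.96 (0.000711, 0.0803 with limma-voom), Dnajb1 at 0.86 ± 0.23 (0.0041) and Hsp90aa1 at 0.83 ± 0.29 (0.0381, 0.0558 with limma-voom). Male replicates 3 and 6 had 23.3 and 28.5 CPM of Hspa1b and 813 and 961 CPM of Hspa5, the highest of all 12 animals in both genes. Without these 2 libraries, a choice made after seeing the data, 1 heat shock gene and 8 ER stress genes were still called higher in males, with medians of 0.17 and 0.39. Hspa1a, Hspa1b, Dnajb1, Hsp90aa1, Hspa5 and Creld2 then missed the threshold, as did Cyp7a1 and Pfkfb3 of the paragraphs below. Over all autosomal genes the number called fell to 2379. Without 1 library the threshold was missed by Dnajb1 (male 6; adjusted p up to 0.0668) and Hsp90aa1 (male 3 and 6 or female 1, 2, 5 and 6; adjusted p up to 0.19).

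In lipid metabolism more genes were called higher in males than in females with TMM scaling. Fewer were with library totals, which moved the median of all genes by -0.28. Of 40 genes of fatty acid oxidation and targets of PPARA, the receptor that drives it, 15 were higher in males and 6 in females, with a median of 0.19. With library totals the counts were 4 and 10, where 2.86% of all genes were called higher in males and 34.6% in females. The median was then -0.10, or 0.18 relative to the shift of all genes, which nearly returns the TMM median by construction. Acsl1, which activates long fatty acids, stood at 2241, 2402 and 2698 CPM in males and 1204, 1303 and 1424 CPM in females (0.90 ± 0.11, adjusted p = 5.27e-10), and Acaa2 was higher by 0.36 ± 0.08 (0.000489; 0.493 with library totals). Fgf21, a fasting hormone and PPARA target, stood at 15.0, 39.2 and 71.5 CPM in males and 5.73, 17.9 and 21.4 CPM in females, with overlap (1.33 ± 0.39, 0.0101). Pdk4, a brake on pyruvate oxidation (-1.49 ± 0.49, 0.0236), and Ppargc1a, a coactivator of oxidative genes (-1.09 ± 0.26, 0.00144), were higher in females. Nudt7, a peroxisomal hydrolase of coenzyme A, stood at 480.1, 567 and 613 and 57.3, 88.7 and 113 CPM (2.63 ± 0.24, 8.78e-14). Leaving out 1 library ended the call of Pdk4 (male 4 and 5 or female 3; adjusted p up to 0.0674).

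Of 32 synthesis genes 7 were higher in males and 0 in females, with Gpam, the first step of triglyceride synthesis, at 0.76 ± 0.10 (6.55e-09). Of 28 genes of lipid uptake and droplets 8 were higher in males and 2 in females. Both medians (0.13 and 0.19) fell below 0 with library totals (-0.15 and -0.10), which called 2 and 6 synthesis genes and 2 and 4 uptake and droplet genes higher in males and in females. Relative to the shift of all genes these medians were 0.13 and 0.19, which nearly returns the TMM medians by construction. The droplet proteins Fitm1 (3.81 ± 0.49, 5.39e-09), Cidec (1.92 ± 0.50, 0.00385; 0.0746 with limma-voom) and Plin2 (0.66 ± 0.18, 0.00599; 0.104 with library totals) were higher in males. In cholesterol synthesis 1 of 23 genes was called, Srebf2, its main transcription factor, which was higher in females (-0.59 ± 0.14, 0.001). Apom, a carrier on high density lipoprotein, was also higher in females (-0.70 ± 0.11, 3.2e-06).

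Bile acid genes were called in both directions, 7 of 31 higher in males and 8 in females, where 10.5% and 7.7% of all genes were. With library totals they were 3 and 12, where 2.86% and 34.6% of all genes were called, and the median went from 0.09 to -0.20. Cyp7a1, the rate-limiting enzyme of the classic pathway, stood at 359, 425 and 641 CPM in females and 70.1, 131 and 340.4 CPM in males, with no overlap (-1.47 ± 0.45, adjusted p = 0.015). The alternative pathway had Cyp7b1 higher in males (above) and Cyp39a1, an oxysterol hydroxylase, higher in females (-3.40 ± 0.33, 3.87e-13). Scp2, which cleaves the side chain in peroxisomes, stood at 3530.2, 3594 and 3662 CPM in males and 1298, 1570.4 and 1666 CPM in females (1.23 ± 0.08, 1.35e-19).

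Amino acid catabolism had 12 of 60 genes higher in males and 9 in females, against 10.5% and 7.7% of all genes. With library totals the counts were 4 and 24, where 2.86% and 34.6% of all genes were called, and the median went from 0.07 to -0.22. Tdo2 (0.89 ± 0.14, adjusted p = 6.53e-07), Kmo (0.69 ± 0.08, 1.98e-10) and Haao (0.76 ± 0.11, 4.27e-07), which take tryptophan towards NAD, were higher in males, as was the transaminase Gpt2 (0.92 ± 0.16, 1.7e-05). Got1 stood at 186, 286 and 362 CPM in females and 54.3, 94.5 and 189 CPM in males (-1.51 ± 0.33, 0.000402), and Hal of histidine breakdown was also higher in females (-0.75 ± 0.22, 0.00987). In the urea cycle 1 of 10 genes passed, the ornithine carrier Slc25a15, and Cps1, its first enzyme, did not (-0.30 ± 0.18, 0.251). Asns, which makes asparagine, was higher in males at low levels, 0.0950, 0.580 and 1.09 against 0.0508, 0.0816 and 0.112 CPM (2.83 ± 0.94, 0.0262; 0.24 with limma-voom). Of 28 genes of glucose metabolism 5 were higher in males and 3 in females (1 and 10 with library totals). Pfkfb3 (1.53 ± 0.40, 0.00378) and Stbd1, a glycogen-binding protein (1.05 ± 0.18, 9.25e-06), were higher in males, and Igfbp1, which binds IGF1, in females (-1.67 ± 0.61, 0.0449; 0.106 without male replicate 4). The call did not hold without 1 library for Asns (male 2 and 6; adjusted p up to 0.066) and Igfbp1 (male 1, 2, 4, 5 and 6 or female 2 and 4; adjusted p up to 0.25).

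Clock genes were higher in males in 5 of 20 tests and in females in 0, where 10.5% and 7.7% of all genes were. With library totals the counts were 3 and 2, where 2.86% and 34.6% of all genes were called. The median of the list then went from 0.34 to 0.05. Per2, a repressor of the clock, stood at 9.19, 24.4 and 40.6 CPM in males and 5.97, 8.65 and 16.6 CPM in females, with overlap (1.34 ± 0.33, adjusted p = 0.0022). Bhlhe41 (2.82 ± 0.48, 5.85e-06), Usp2 (1.52 ± 0.53, 0.0341), Tef (0.60 ± 0.22, 0.0434) and Ciart (2.03 ± 0.69, 0.0292; 0.298 with limma-voom) were also higher, but Usp2 and Tef missed the threshold with library totals and with limma-voom. Arntl, which activates Per2, had 1.62, 6.70 and 15.0 CPM in males and 6.78, 14.4 and 20.5 CPM in females and did not pass (-1.01 ± 0.45, 0.11), and Dbp stood at 0.95 ± 0.40 (0.0883). Among the males, replicate 5 had the highest Per2 (40.6 CPM) and the lowest Arntl (1.62 CPM), and replicate 2 the lowest Per2 (9.19 CPM) and the highest Arntl (15.0 CPM). The labels used here give no time of day for each animal, so sex and the hour of dissection cannot be told apart in these genes. Without 1 library the threshold was missed by Usp2 (male 4 and 5 or female 2, 4, 5 and 6; adjusted p up to 0.29), Tef (male 3, 4 and 5 or female 2, 4, 5 and 6; adjusted p up to 0.193) and Ciart (male 5 or female 2 and 4; adjusted p up to 0.242).

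For the other lists each count gives members higher in males, then in females, of those tested. Over all genes the shares were 10.5% and 7.7%, and many of these lists lie near or below them in at least 1 direction. Among enzymes and carriers of drugs and steroids the counts were 4 and 2 of 14 for Cyp4 omega-hydroxylases, 7 and 2 of 19 for UDP-glucuronosyltransferases and 4 and 1 of 23 for glutathione transferases. They were 7 and 3 of 14 for flavin monooxygenases and aldehyde oxidases, 5 and 3 of 13 for carboxylesterases, 9 and 4 of 28 for steroid dehydrogenases and reductases, and 8 and 9 of 30 for organic ion and ABC transporters. In metabolism they were 4 and 4 of 29 for lipoproteins, 6 and 1 of 30 for serine, one-carbon and ATF4 genes, and 5 and 4 of 24 for genes of zonation along the lobule. Genes of the interferon response had 3 and 1 of 36, antigen presentation 1 and 2 of 20, NRF2 targets 3 and 3 of 27 and the cell cycle 1 and 0 of 24.

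**Figure D3:**
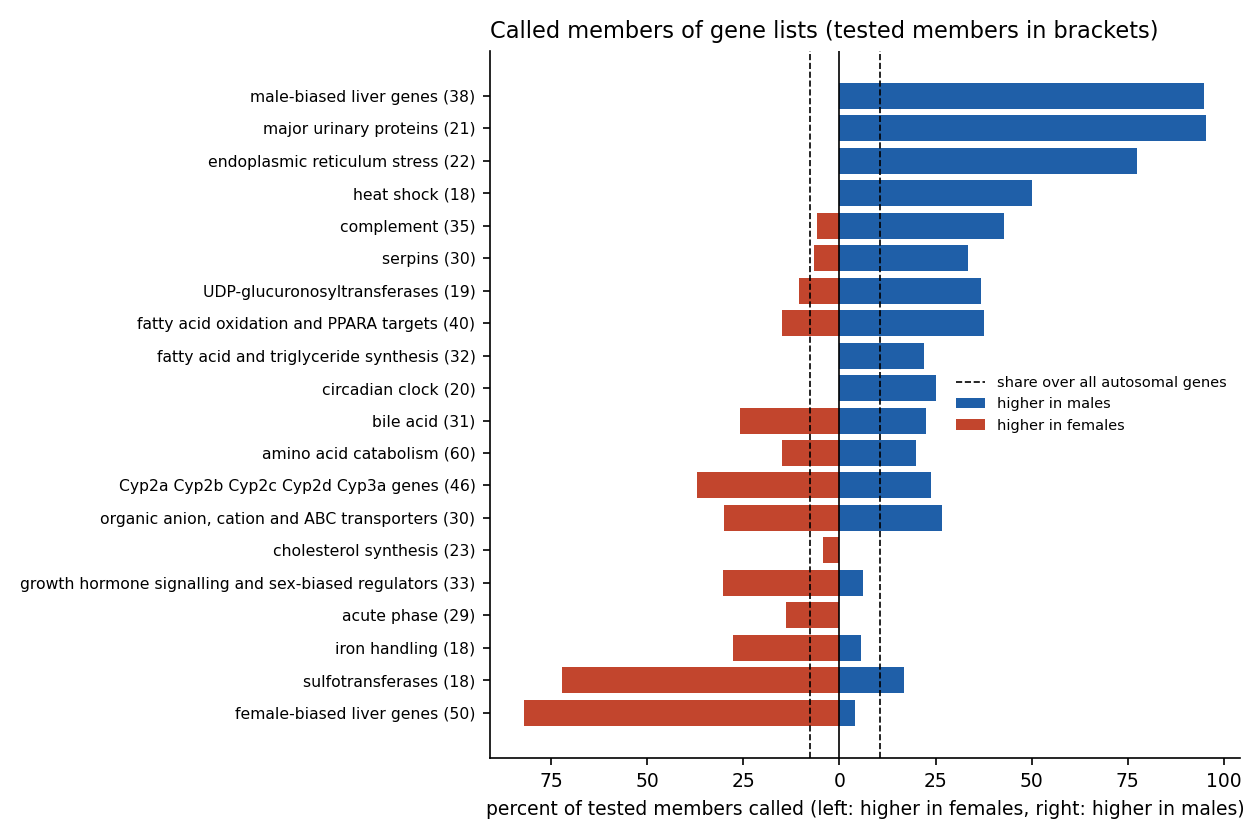
Bars give the percent of tested members of a gene list (number in brackets) called higher in females, to the left, and higher in males, to the right; dashed lines mark the share over all autosomal genes (7.7% and 10.5%). Male-biased liver genes and urinary proteins lie almost wholly on the right, and sulfotransferases and female-biased genes mostly on the left.

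Some markers of each of the main cell types of the liver were called between the sexes, and their counts are to be read against the 18.2% of all genes that were called. Summed levels are those of the autosomal markers. Of hepatocyte markers 2 of 14 were called (Apob and Serpina1c, above), and Alb stood at 36223, 44539 and 61807 CPM in males and 40907, 46266 and 51197 CPM in females (0.05 ± 0.14, adjusted p = 0.857; -0.23 with library totals). Of 23 Kupffer cell and macrophage markers 0 were higher in males and 1 in females, and their summed level ran from 500.2 to 645 CPM in males and from 573 to 778 CPM in females, with Clec4f at -0.13 ± 0.18 (0.68). For endothelial markers the calls were 3 and 0 of 20 (sums 479.8 to 589 and 438 to 565 CPM). Stellate cell and matrix markers had 3 and 3 of 27, with the basement membrane genes Col4a1 (0.58 ± 0.14, 0.00114; 0.0786 with library totals) and Col4a2 (0.81 ± 0.17, 0.000228) higher in males.

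Of 15 cholangiocyte markers Tff3, a trefoil peptide (6.86 ± 1.83, 0.0047; 0.164, 0.386 and 3.95 CPM in males and 0, 0 and 0.0266 CPM in females), and Sox9, a transcription factor (0.91 ± 0.30, 0.0254), were higher in males and Cftr, a chloride channel (-1.79 ± 0.64, 0.0419), in females. Their summed level ran from 34.4 to 51.8 CPM in males and from 37.8 to 49.8 CPM in females. Leaving out 1 library ended the call of Tff3 (male 2; adjusted p up to 0.0567), Sox9 (male 2 and 3 or female 2, 3 and 4; adjusted p up to 0.0824) and Cftr (male 1, 2, 4, 5 and 6 or female 1, 3, 4 and 5; adjusted p up to 0.0806).

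Of lymphocyte markers the calls in males and in females were 1 and 2 of 19 for T and NK cells and 2 and 0 of 18 for B and plasma cells. Cd4 was the 1 T cell marker higher in males (1.39 ± 0.24, 1.13e-05). Cd3e, of the T cell receptor complex (-1.26 ± 0.45, 0.0392), and Trbc1, a constant part of the receptor (-1.71 ± 0.47, 0.00659), were higher in females, and the median of the list was -0.35. The call of Cd3e did not hold without 1 library (male 2, 3, 5 and 6 or female 1, 4 and 5; adjusted p up to 0.12), and both Cd3e and Trbc1 missed the threshold without males 3 and 6. Red blood cell markers had 2 of 7 autosomal members higher in males, with summed levels of 100.3 to 199 CPM in males and 45.3 to 115 CPM in females, which overlap. Hbb-bt, a beta globin, stood at 1.40 ± 0.35 (0.00231). In all 12 libraries 7 of 12 pancreatic acinar markers were at 0, among them Prss2, Cpb1 and Pnlip, and Cela1 was called (0.87 ± 0.18, 0.000206). Of 13 neutrophil markers Ly6g, which defines these cells, was the 1 at 0 in all 12 libraries. Others had counts, such as Csf3r with 277 over all males and 348 over all females, and S100a9 with 37 and 44. Of the 4 neutrophil markers tested, 0 were called in either direction. The part of blood or other cells in the results above was not tested, and fewer cells of a type and less RNA per cell cannot be told apart in whole tissue.

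Some sex-biased genes lay next to each other. Of 13757 protein-coding autosomal genes, put in the order of the GENCODE M21 annotation, 2922 were called in either direction. In this order 7 runs of at least 5 neighbours were called in 1 direction, 4 in males and 3 in females, with 49 genes in all. How many runs would arise without any clustering was not tested. The longest, of 14 genes higher in males, held Mup genes and Zfp37, and a run of 7 further Mup genes lay apart from it. The other runs higher in males held no Mup gene. They were Elp3, Nuggc, Scara5, Esco2 and Ccdc25 (median log2 fold change 2.90), and Pex5, Clstn3, C1rl, C1ra and C1s1 (0.33). In females a run of 8 genes held Sult2a1 to Sult2a6 with Lig1 and Zswim9, another held Cyp3a16, Cyp3a41a, Cyp3a41b, Cyp3a44 and Cyp3a57, and the last held Cyp2b9, Cyp2b10, Cyp2b13, Cyp2a4 and Cyp2g1. Sult2a4 (-9.61, 1.88e-11) and Sult2a6 (-11.48, 7.24e-16) belong to the first of these, and Sult2a7 (-4.44, 2.97e-10) was called outside it.

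Animals of 1 sex differed in how often they were its highest in genes higher in the other sex. For each male, the genes at least 2-fold higher in females (197 at a mean log2 CPM not below 0) were searched for those in which he was the highest of the 6 males. Male replicate 5 was the highest in 58 of them (29.4%) against 22.1% of all 13172 genes at that level, and male replicate 2 in 50 (25.4% against 15.0%). Among the females, replicate 6 was the highest in 75 of 219 genes higher in males (34.2% against 15.3% of all genes), and the other 5 females in 8.22 to 19.6%. She had 37.1 CPM of Mup7, 31.1 CPM of Cyp7b1 and 84.3 CPM of Slco1a1, the highest of the females in each and far below the lowest male. Her Ddx3y was 0, and the Xist of male replicate 5 was 0.728 CPM, within the range of the other males. The sizes were small. Over these genes the median ratio to the median of the animal's own sex was 1.12 in female replicate 6 and 0.966 to 1.01 in the other females. In males it was 1.08 in replicate 5, 1.07 in replicate 2 and 0.938 to 1.03 in the others. This is a description of single animals, with no test.

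**Figure D4:**
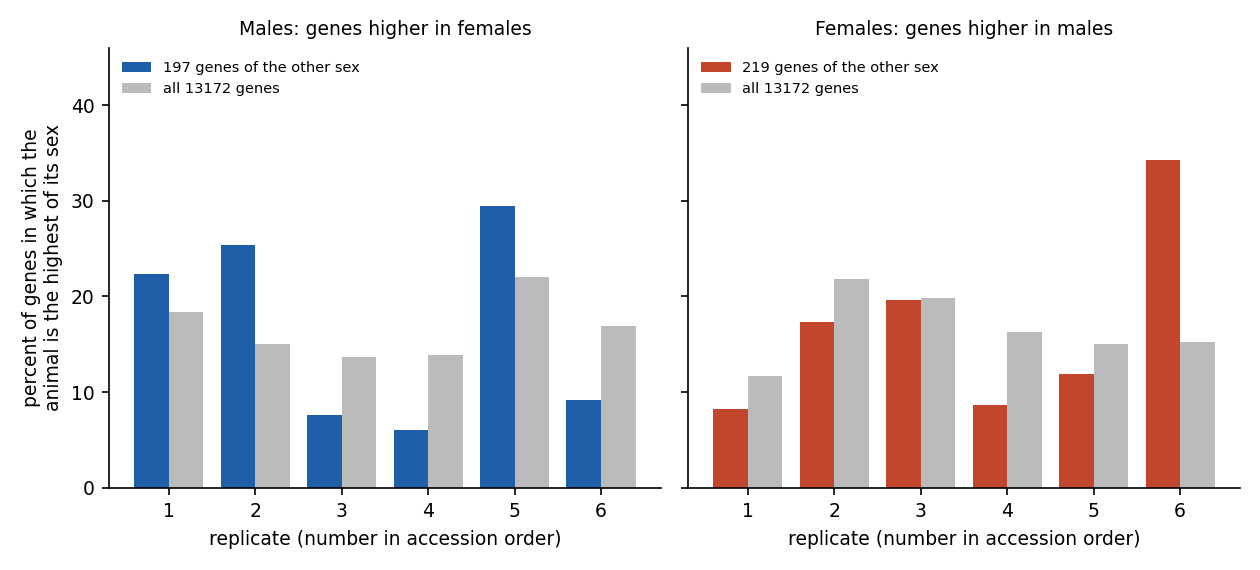
Coloured bars give, for each animal, the percent of genes higher in the other sex (at least 2-fold) in which it was the highest of its own sex; grey bars give the same over all 13172 genes at that level. Female replicate 6 (34.2%) stands above the other females, and male replicates 1, 2 and 5 above the other males.

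The same genes could be read in other DBA/2J animals, those on Medium Protein and Low Protein. Their values did not enter the Control contrast, but all libraries were fitted together, so they shared its filter, scaling and dispersions. Of the 3402 genes called on Control, 3327 (97.8%) had the same direction on Medium Protein and 3245 (95.4%) on Low Protein, against 76.4% and 72.8% of all genes tested. They were called in the same direction in 1764 and 1905 cases and in the opposite direction in 1 and 2, where 13.1% and 18.7% of all genes were called. Cux2, for example, stood at -5.30 (adjusted p = 2.64e-09) on Medium and at -5.63 (1.5e-09) on Low Protein, and Cyp7b1 at 4.36 (4.82e-15) and 3.78 (4.32e-13). The ER chaperone Hspa5 stood at 0.69 (0.0221) and 0.94 (0.000839), and Hspa1b at 2.49 (0.013) and 3.51 (0.000169).

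Whether the sex effect itself changed with diet was tested as a difference of differences. With edgeR 0 autosomal genes passed for Low Protein against Control (0.0%; 1435 genes had an unadjusted p under 0.05, limma-voom called 0 and DESeq2 13). For Medium Protein 0 passed (0.0%; 586 at an unadjusted p under 0.05, 0 with limma-voom and 7 with DESeq2). Among genes called on Control those with small p-values for Low Protein included Mup12 (-6.08, adjusted p = 0.16), Shank2 (0.88, 0.16), Numa1 (0.38, 0.162) and Magi1 (0.33, 0.232). For Medium Protein the smallest were those of Magi1 (0.36, 0.334), Mup12 (-5.71, 0.423), Stx7 (0.36, 0.655), Cyp4a12a (-3.48, 0.655) and Sec24c (-0.34, 0.655). Mup12 here rests on male replicate 4 of the Control group. These differences use the same Control animals as the comparison itself.

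C57BL/6J mice on Control gave the comparison between strains, and 3855 autosomal genes (20.6%) were called between their sexes. Of these C57BL/6J males, replicates 1 and 6 had 13.2% and 35.4% of their counts from genes that read like ribosomal RNA. Across the autosomal genes tested the fold changes of the strains had a Pearson r of 0.598, a description over genes, which are not independent. Of the genes called in DBA/2J 74.3% had the same direction in C57BL/6J, 1119 were called in it and 131 in the opposite one. Among all genes tested 61.6% had the same direction.

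The difference of the sex effect between the strains (DBA/2J minus C57BL/6J) passed for 1561 genes (8.33%). Without the libraries of over 5% ribosomal-like RNA it passed for 1206, of which 1098 were shared. Of the 1561, 809 were called between the sexes in DBA/2J. Of those, 194 had the same direction in both strains and were larger in DBA/2J, 14 were smaller in DBA/2J, and 601 had opposite signs, of which 131 were also called in C57BL/6J. Since these genes were called in DBA/2J, a larger value there is partly set by that choice. The smallest p was that of Adh6-ps1, which stood at 1.24 in C57BL/6J and 7.66 in DBA/2J (difference 6.42 ± 0.73, adjusted p = 1.85e-08). Cyp2c40 was female-biased in both strains, by -5.24 in C57BL/6J and -10.78 in DBA/2J (-5.54 ± 0.65, 2.26e-08), and so was Cyp2c69 (-3.96 ± 1.07, 0.0119). Abcg2 was male-biased in both, by 1.17 and 2.65 (1.48 ± 0.17, 2.26e-08).

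Several genes had opposite signs in the strains. Srebf2 stood at 0.96 in C57BL/6J and -0.59 in DBA/2J (-1.55 ± 0.19, adjusted p = 1.39e-07), Lpar1, a receptor of lysophosphatidic acid, at -0.78 and 1.47 (2.25 ± 0.33, 7.56e-06), and Plg at 0.33 and -0.46 (-0.78 ± 0.12, 9.42e-06). Ank2 (1.55 ± 0.22, 2.12e-06), Ndst1 (-0.74 ± 0.10, 2.11e-06), Cds2 (-0.66 ± 0.10, 9.42e-06) and Myo5b (-0.72 ± 0.09, 1.39e-07) also had opposite signs. Fgf21 stood at -1.32 in C57BL/6J (adjusted p = 0.016) and at 1.33 in DBA/2J, a difference of 2.64 ± 0.57 (0.00142), and Cidec likewise (-1.78 and 1.92; 3.70 ± 0.68, 0.000207).

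Among sex-biased regulators the female bias of Cux2 (-2.89 ± 0.93, adjusted p = 0.039), Tox (-1.22 ± 0.26, 0.00144), Trim24 (-0.73 ± 0.24, 0.0428) and Prlr (-1.31 ± 0.26, 0.000527) was larger in DBA/2J. Near-identical copies also differed between the strains. Serpina1e stood at 4.24 in C57BL/6J and -0.08 in DBA/2J (-4.32 ± 0.75, 9.57e-05), Mup11 at 6.56 and 0.93 (-5.63 ± 0.90, 3.04e-05), and Mup15 at 2.52 and 9.85 (7.33 ± 1.29, 0.000129). Sult3a1 (-3.46 ± 1.56, 0.171), Cyp4a12b (2.78 ± 1.38, 0.229) and Slco1a1 (0.07 ± 0.53, 0.96) did not pass this test. The strains can differ in sequence within such copies, and the effect of that on read assignment was not tested.

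**Figure D5:**
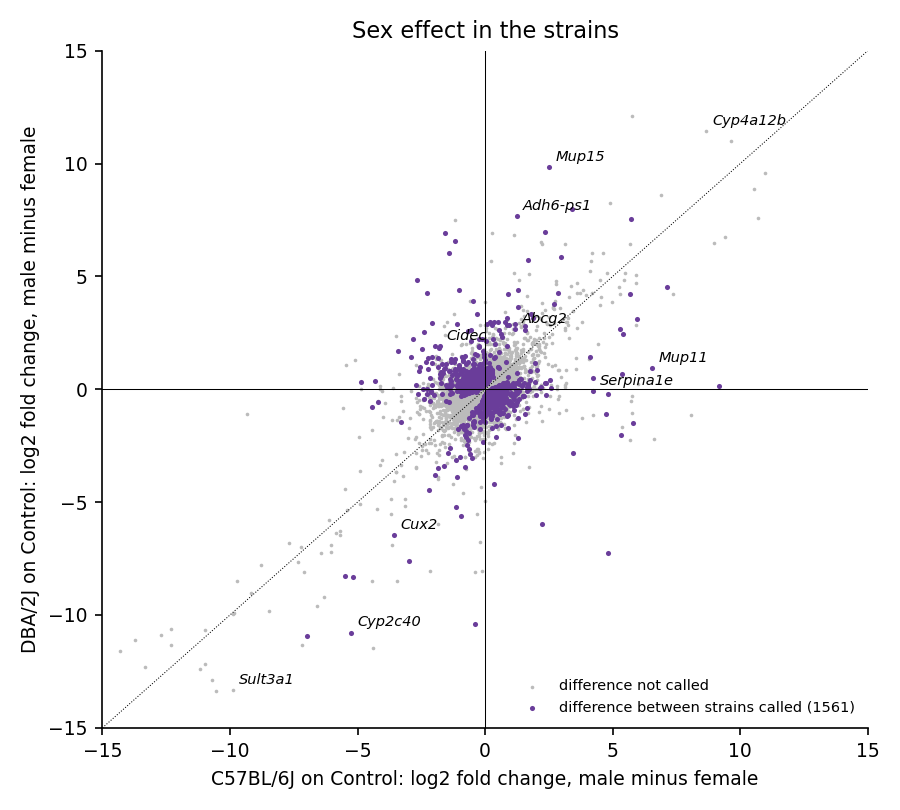
Each point is an autosomal gene, with its sex effect (log2, male minus female) in C57BL/6J on the x axis and in DBA/2J on the y axis, both on Control; purple points are the 1561 genes whose sex effect differed between strains. Sult3a1 lies low and Cyp4a12b high on both axes, while Mup15 lies higher in DBA/2J than in C57BL/6J, and Mup11 and Serpina1e lower.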

How the data were processed

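Livers of single animals were sequenced as stranded, polyA-enriched libraries, and data of 2 lanes were merged per library, per the labels' protocols. The authors deposited expected counts per gene for all 72 libraries; RSEM, R 3.4.3, limma and edgeR are listed, with no role, in the submitters' processing notes. Aligner and build were not given in the sources used here. Values were rounded to whole counts (11.6% were not whole). Identifiers were matched to GENCODE M21 names (51719 matched).

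All 72 libraries were fitted with edgeR 4.0.16 (R 4.3.3; TMM, filterByExpr, quasi-likelihood test), with 12 group means of strain, sex and diet. The contrast was DBA/2J males minus females on Control, two-sided, with Benjamini-Hochberg adjustment over 19362 genes, and only autosomal genes are printed. Strain and diet differences were interaction contrasts of the same fit. CPM are counts scaled to the library size after TMM. The fit was tested on simulated counts.

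Named by rule were the 15 called genes with the highest and the 15 with the lowest fold change, the 5 most abundant and 6 of smallest p in each direction, the 10 of smallest p for the strain difference and 5 for each diet; others were listed by hand, and a few genes are not reported here. Members and 52 gene lists were chosen with earlier results of these data known. Alternatives were other scalings, filters, DESeq2 1.42.0, limma-voom (limma 3.58.1), a null fold of 1.2, fewer libraries and each library left out. A floor of 3 counts over a group stands for 0. Libraries held 26.9 to 36.3 M counts each, and the intervals of ratios cover counting error only. Standard errors and p-values rest on the spread between animals within a group. RSEM divides reads between near-identical copies by an estimate, so members of the Mup, Sult2a, Cyp3a41, Cyp4a12, Cyp2c and Serpina1 families are uncertain singly.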

Additional observations from a re-analysis of the deposited data

Results flagged for a closer look

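A value was looked at again where 1 animal of 6 lay far from the others of its sex (by Dixon's ratio of its gap to the range of the 6) in the CPM of a named gene. This marked 40 of 354 groups of 6, and chance marks about 1 in 20. The genes are not independent, and causes were not tested.

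Female replicate 6 was the highest female, in CPM, for C6 at 26.7, C8b at 165, Cyp17a1 at 193, Cyp4a12a at 0.728, Cyp7b1 at 31.1, Mup1 at 1493, Mup20 at 21.8, Mup7 at 37.1 and Slco1a1 at 84.3, genes higher in males except Cyp17a1. Male replicate 5 was the highest male for A1bg at 0.697, Acot3 at 73.9, Aldh1a1 at 1418, Ciart at 12.8, Cyp2a4 at 1.204, Cyp2a5 at 641, Cyp2b10 at 0.348 and Slc22a27 at 1.52, and the lowest for Plin2 at 432. Male replicate 4, the library with ribosomal-like RNA, was the highest for Cyp2u1 at 45.9, Hsd3b5 at 139.8, Lars2 at 22361 and Mup12 at 1998. Male replicate 1 was the highest for C8a at 974, Cish at 20.2 and Cyp2b9 at 6.22, male replicate 2 for Tff3 at 3.95, male replicate 3 for Cyp3a16 at 0.118 and Cyp3a41b at 0.441, and male replicate 6 for Cyp17a1 at 29.6 and Sult2a3 at 0.0374. Among the other females replicate 5 was the highest for Lars2 at 96.8, Mup12 at 3.08 and Mup15 at 1.77, replicate 3 for Gpam at 143 and Ppara at 181, replicate 4 for Stx7 at 14.1 and Trbc1 at 1.01 and replicate 2 for Igfbp1 at 154 and Tff3 at 0.0266, and replicate 2 was the lowest for C9 at 111.

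The sex effect differed between the strains in 54 named genes by edgeR's quasi-likelihood test of the difference, given here as log2 (male minus female) in DBA/2J minus that in C57BL/6J. Higher in males in both strains by sign, and more so in DBA/2J, were Abcg2 (1.48), Adh6-ps1 (6.42), Capn8 (2.92), Gpam (0.49), Hsd3b2 (1.57), Mup15 (7.33), Mup18 (4.55), Mup21 (1.86), Nox4 (1.07), Nudt7 (1.07), Scp2 (0.40) and Tdo2 (0.68). Higher in males in both by sign, but less so in DBA/2J, were Cyp2d9 (-1.47), Mup1 (-2.59) and Slc22a28 (-2.84). Lower in males in both by sign, and more so in DBA/2J, were Abcd2 (-2.04), Acot3 (-2.01), Apom (-0.50), C3 (-0.65), Cux2 (-2.89), Cyp2b9 (-3.17), Cyp2c39 (-1.62), Cyp2c40 (-5.54), Cyp2c69 (-3.96), Cyp39a1 (-1.80), Lbp (-0.62), Prlr (-1.31), Slc22a26 (-2.76), Slco1a4 (-1.37), Sult2a7 (-2.26), Tox (-1.22), Trim24 (-0.73) and Vldlr (-1.83). Called higher in males in DBA/2J with the opposite sign in C57BL/6J were Ank2 (1.55), Cidec (3.70), Col4a1 (0.81), Col4a2 (0.84), Fgf21 (2.64), Gpt2 (1.05), Lpar1 (2.25) and Plin2 (0.88). Called higher in females in DBA/2J with the opposite sign in C57BL/6J were Cds2 (-0.66), Fn1 (-0.82), Magi1 (-0.39), Myo5b (-0.72), Ndst1 (-0.74), Numa1 (-0.41), Plg (-0.78), Serpinc1 (-0.36), Shank2 (-0.85), Srebf2 (-1.55) and Stat5b (-0.51). Not called between the sexes in DBA/2J were Mup11 (-5.63) and Serpina1e (-4.32).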

How the results depend on the processing

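The number of genes called between the sexes, 3402, was 7024 with library totals in place of TMM and 1114 against a null fold of 1.2, and stayed within 1.5 times with the other settings, at 2771 to 3280 when 1 library was left out. Genes at least 2-fold different, 830, were 1288 with library totals and 751 to 871 when 1 library was left out. Strain differences, 1561, were 1035 with no filter on low counts, 347 against a fold of 1.2 and 1206 without the libraries of over 5% ribosomal-like RNA. They were 1160 to 1668 when 1 DBA/2J Control library was left out, and no C57BL/6J library was left out singly. For the diet differences, with 0 genes by edgeR, DESeq2 called 13 for Low Protein and 7 for Medium Protein. Leaving out male replicate 4 gave 2994 called genes (2875 shared), and leaving out males 3 and 6, a choice made after seeing the data, gave 2379 (2261 shared). With library totals 29 of 52 list medians kept their sign, against 52 with RLE size factors and 51 without the 10 most abundant genes. Library totals moved the median of all genes by -0.28. Relative to that shift the medians of serpins and bile acid genes were 0.187 and 0.086, against 0.191 and 0.089 with TMM. The 2 tested pancreatic acinar markers moved most, to 0.575 from 0.437. Taking off the shift nearly returns the TMM median of most lists by construction, so these relative medians are no separate check of a list.

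Of 165 named genes called between the sexes, 122 passed in every setting and 43 missed the threshold in at least 1. With library totals these were Acaa2, Col4a1, Hsp90aa1, Plin2, Sec24c, Serpina1a, Serpina1b, Sox9, Tef and Usp2, and with limma-voom Asns, Cftr, Ciart, Cidec, Hsp90aa1, Hspa1a, Hspa1b, Igfbp1, Lars2, Mup15, Sult2a3, Tef, Tff3 and Usp2. Leaving out at least 1 single library lost Apob, Asns, Bcl6, Cd3e, Cftr, Ciart, Dnajb1, Hamp, Hsp90aa1, Igfbp1, Itih3, Lars2, Ndst1, Nr1i3, Numa1, Pdk4, Sox9, Stat5b, Stx7, Tef, Tff3 and Usp2. Without males 3 and 6 the calls of Apob, Asns, Cd3e, Cftr, Creld2, Cyp7a1, Dnajb1, Hsp90aa1, Hspa1a, Hspa1b, Hspa5, Itih3, Ndst1, Nr1i3, Numa1, Pdk4, Pfkfb3, Sox9, Stat5b, Stx7 and Trbc1 were lost. A fit of the 12 DBA/2J Control libraries alone lost Apob, Cd3e, Ndst1, Stat5b, Stx7, Tef and Usp2. 5 genes changed sign, and 4 of them were never called. With library totals Alb stood at -0.23, Apob at -0.092 and Ghr at -0.060. Leaving out 1 library gave fold changes from -0.036 to 0.12 for Alb, -0.10 to 0.027 for Cyp3a11, -0.069 to 0.011 for Igf1. Without the libraries of over 5% ribosomal-like RNA Cyp3a11 stood at 0.012 and Igf1 at 0.0092, and without males 3 and 6 Igf1 stood at 0.00099. The called members of ER stress genes ran from 11 to 18 with 1 library left out, of heat shock genes from 5 to 10 and of clock genes from 2 to 6. Counting only the bases before the start, the STAT5 palindrome stood in 6.19% of all windows, 7.59% of the male-biased and 8.75% of the female-biased. No paired analysis was possible because the labels give the animals no replicate numbers shared between the sexes.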
